A study of Mus musculus with 4 samples.

Results

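CD8 cluster 4 is 1 of 8 clusters into which the authors divided the CD8 T cells of a multiome experiment, in which RNA and open chromatin (ATAC) are read from the same nucleus. Its cells were taken by the authors' own cell table, as all cells of the CD8 object with cluster number 4, and number 266 of 2377 CD8 cells and of 3587 cells in all. Of these, 7 came from the PT-Cy library and 259 from the alloBMT library. The cluster therefore made up 1.37% (0.551 to 2.80) of the 512 PT-Cy CD8 cells and 13.9% (12.3 to 15.5) of the 1865 alloBMT CD8 cells, with exact Clopper-Pearson 95% intervals.

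The T cells were sorted from bone marrow of C57Bl/6 mice 14 days after they had been given 5000000 marrow cells, 500000 CD4 and 500000 CD8 T cells of C3H.SW donors. PT-Cy recipients also received cyclophosphamide at 50 mg/kg on days 3 and 4 after the transplant, and alloBMT recipients had the transplant without the drug. Each group is a pool of 4 mice and was read as 1 library per assay. The labels give neither the ages of the mice nor whether a cell came from the donor or from the recipient. With 1 library per group no test was possible: every ratio below describes these libraries, and every interval is a 95% interval that covers counting error only, neither the spread between mice nor that between cells. Because the authors grouped the cells by their RNA and ATAC profiles together, differences between cluster 4 and the other CD8 cells describe the cluster and are no test of it. The 7 PT-Cy cells are too few for a ratio per peak, so comparisons are within alloBMT and the PT-Cy cells are given as values. The RNA counts of the CD8 cells were not analysed here.

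CD8 T cells recognise peptides on MHC class I and kill the cells that carry them. After a transplant across minor antigens, donor CD8 cells that meet antigen divide, become effectors and, when antigen persists, can take on an exhausted state marked by the factor Tox and by inhibitory receptors such as Pdcd1 and Havcr2, while stem-like cells keep Tcf7 and Il7r. In ATAC data the transposase cuts DNA that is free of nucleosomes, so that the number of cuts in a peak tells how open a promoter or enhancer was.

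The cluster was of middling depth in ATAC and toward the low end in RNA. Its alloBMT cells had a median of 8111 ATAC counts in peaks per cell, against cluster medians of 2449 (cluster 1) to 15014 (cluster 2) among the other alloBMT CD8 cells, and 2820 RNA molecules (UMIs), against 2618 to 5349. Together they gave 2348072 counts in peaks, against 14257858 in the other 1606 alloBMT CD8 cells, and the 7 PT-Cy cells gave 45693 counts, against 3072179 in the other 505 PT-Cy CD8 cells. The median nucleosome signal, the ratio of fragments that span a nucleosome to shorter ones, was 0.991 in cluster 4, against 0.876 to 0.939 in the other alloBMT CD8 clusters. Median TSS enrichment was 5.30, inside the 5.27 to 5.66 of the others. The part of these quality differences in the results below was not tested. Between the libraries 2 barcodes were shared, 1 of them by a cell of cluster 4.

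The loci of the CD8 lineage matched the label. A locus is here the sum of the peaks that overlap a gene or lie within 2 kb of it, in CPM, counts scaled to a common total of counts in peaks. Cd8a, a chain of the CD8 co-receptor, had 30.2 CPM in cluster 4, 33.9 CPM in the other alloBMT CD8 cells and 7.03 CPM in the alloBMT CD4 cells. Cd8b1, the other chain, had 54.9 CPM in cluster 4, 58.5 CPM in the other CD8 cells and 12.5 CPM in the CD4 cells. Cd3e, a signalling chain of the T cell receptor complex, had 145 CPM in cluster 4 and 112 CPM in the other CD8 cells. The Cd4 locus stood at 57.1 CPM in cluster 4, above each of the 7 other clusters (38.2 to 52.9 CPM), and at 93.5 CPM in the alloBMT CD4 cells. Zbtb7b, the factor that sets the CD4 lineage, did not share that position, with 60.0 CPM in cluster 4, 66.6 CPM in the other CD8 cells and 90.9 CPM in the CD4 cells. Loci of other blood cells were uneven. Cluster 4 had 3 counts at Ms4a1 (B cells), 2 at Lyz2 and 1 at S100a8 (myeloid cells), 4 at Gata1 (erythroid cells) and 2 at Ncr1 (natural killer cells), of its 2348072 counts; these were chosen after their values were seen. Other loci of the same lists were open in both sets, with 83.9 CPM in cluster 4 and 79.3 CPM in the other CD8 cells at Cd79a, 63.5 CPM in cluster 4 and 59.1 CPM in the others at Mmp9, and 44.7 CPM in cluster 4 and 49.6 CPM in the others at Tyrobp.

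At single peaks, cluster 4 stood apart from the other alloBMT CD8 cells at few sites, some of them higher and some lower. A peak was measured when its mean level would give at least 20 counts in the smaller set, and called past 2-fold. Of 25218 measured peaks, 152 (0.603%) were higher in cluster 4 by 2-fold or more and 175 (0.694%) were lower by as much. With TMM scaling in place of total counts, which shifts all log2 ratios by -0.07, these numbers were 105 and 236. Every called peak had an interval apart from 0, which follows from the minimum count and the 2-fold rule. Only 13 of the higher and 15 of the lower peaks had the whole interval past 2-fold. The median over all measured peaks was 0.02 on the log2 scale, and 95% of them lay between -0.71 and 0.68. The peaks nearest to the threshold had log2 ratios of 1.0002 inside and 0.995 outside it on the higher side, and -1.003 inside and -0.999 outside it on the lower side. Of the higher peaks 144 stood above, and of the lower ones 139 stood below, every other cluster that had at least 50 alloBMT cells. Against all 7 other clusters, with the 30 cells of cluster 5, these numbers were 119 and 97. Since the peaks were called against the pool of these same cells, such numbers follow largely from the choice of peaks.

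**Figure D1:**
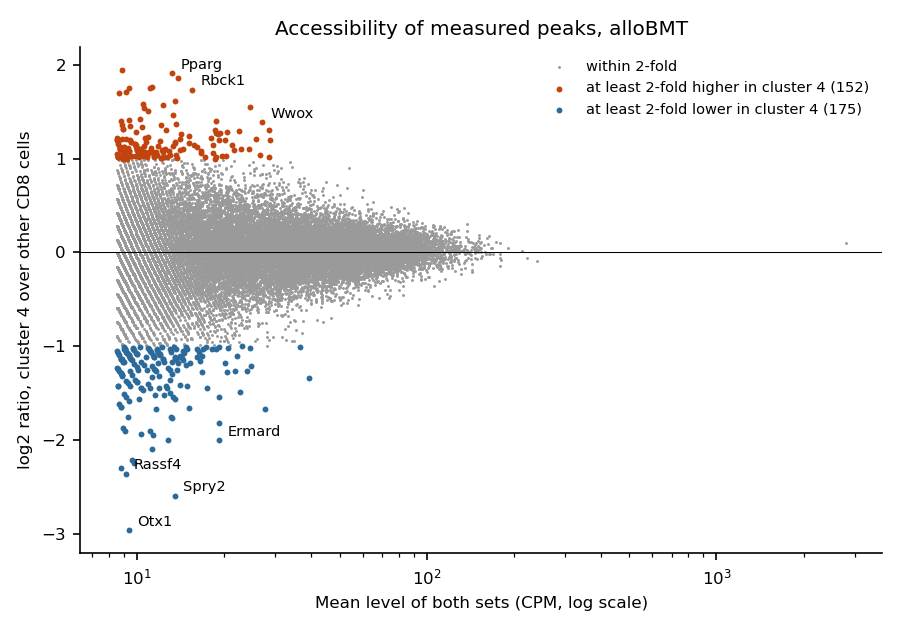
Measured peaks of the alloBMT library, with the mean level of cluster 4 and the other CD8 cells (CPM, log scale) on the x axis and the log2 ratio of cluster 4 over the other CD8 cells on the y axis; each point is 1 peak. The 152 higher peaks (orange) and 175 lower peaks (blue) lie at low levels, and the lower ones reach further from 0, to -2.96 at Otx1 against 1.95 on the higher side.

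The largest ratios at single peaks were on the lower side. A peak at Otx1, a homeodomain factor of brain and sense organ development (chr11:22000798-22002215, as deposited), had 5 counts or 2.13 CPM in cluster 4 and 16.6 CPM in the other CD8 cells, a log2 ratio of -2.96 (-4.60 to -1.72). Only 5 of 259 cluster 4 cells (1.93%) had a count there, against 200 of 1606 other cells (12.5%), and the other clusters ranged from 10.6 to 23.3 CPM. A peak in Spry2, which inhibits signalling from receptor tyrosine kinases to the ERK kinases (chr14:105895680-105896444), had 3.83 CPM in cluster 4 and 23.1 CPM in the other CD8 cells, with a ratio of -2.59 (-3.74 to -1.65). It had a count in 8 of the 259 cluster 4 cells (3.09%) and in 16.7% of the other cells. The other clusters ran from 0 CPM in the 30 cells of cluster 5 and 10.6 CPM in cluster 6 to 28.6 CPM in cluster 3.

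Several peaks at Spry2 were lower together. A further peak in the gene had a ratio of -1.45 (-2.28 to -0.72), the peak at its promoter -1.27 (-1.88 to -0.72), and a peak 4.4 kb away -1.94 (-3.02 to -1.04). At the promoter cluster 6, with 10.6 CPM, was below the 11.9 CPM of cluster 4. Summed over the peaks within 2 kb, which leaves out the one 4.4 kb away, the locus had 26.0 CPM in cluster 4, below all 7 other clusters, which ran from 37.7 CPM in the 30 cells of cluster 5 and 38.3 CPM in cluster 6 through 56.2 CPM in cluster 2 to 103 CPM in cluster 3. The alloBMT CD4 cells had 22.5 CPM there and the PT-Cy CD4 cells 25.3 CPM. The 7 PT-Cy cells of cluster 4 gave 2 counts, or 43.8 CPM (5.30 to 158), and the other PT-Cy CD8 cells 50.5 CPM.

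Other lower peaks lay at the promoter of Rassf4, of the family of Ras association proteins (-2.36, -3.69 to -1.29), in Fry (-2.00, -2.97 to -1.17), and at a distance from the nearest gene near Ermard, Trhr2, Cldn5, Tmem260, Slc15a1 and Ctnnb1. The peak near Ermard (chr17:15106727-15107767, 16.7 kb from the gene) had 18 counts in cluster 4 and 437 in the other CD8 cells, and a ratio of -2.00 (-2.77 to -1.32). Its level varied among the others too, from 3.77 CPM in cluster 5, below the 7.67 CPM of cluster 4, to 41.1 CPM in cluster 0.

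Among the higher peaks the strongest by the bound of the interval was 22.4 kb from Pparg, a nuclear receptor of fatty acid metabolism (chr6:115512791-115513609). It had 20.9 CPM in cluster 4 and 5.54 CPM in the other CD8 cells, a ratio of 1.91 (1.37 to 2.45), and had a count in 14.3% of cluster 4 cells and 4.23% of the others. Only cluster 5, with 30 cells, was higher, at 22.6 CPM. A peak in Sall2, a zinc finger factor, had 21.7 CPM in cluster 4 and 5.96 CPM in the others (1.87, 1.33 to 2.38). Peaks in Rbck1, a subunit of the enzyme that builds linear ubiquitin chains, in Tpst2, which adds sulfate to tyrosines, and in Cd86, a ligand of Cd28 and Ctla4, had ratios of 1.74 (1.24 to 2.22), 1.75 (1.16 to 2.33) and 1.72 (1.06 to 2.35). Cluster 5 was above cluster 4 at Rbck1, with 26.4 CPM there and 23.8 CPM in cluster 4, and at Cd86, with 26.4 CPM there and 14.1 CPM in cluster 4. At Cd86 the signal rested on 33 counts from 25 of the 259 cells.

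Wwox, an oxidoreductase whose very long gene spans a fragile site of the genome, held 6 of the 152 higher peaks, more than any other gene. The gene has 100 peaks in all, measured or not, and 0.603% of all measured peaks were higher. Ratios of the 6 ran from 1.04 to 1.77, and several lay close together, between chr8:114972998 and chr8:114986374. The best counted of them (chr8:114982396-114983065) had 92 counts or 39.2 CPM in cluster 4 and 14.9 CPM in the other CD8 cells (1.39, 1.02 to 1.75). Summed over its 100 peaks the locus had 503 CPM in cluster 4, against 283 to 438 CPM in the other 7 clusters, a ratio of 0.64 (0.54 to 0.73). The CD4 cells of both libraries were higher still, with 528 CPM in PT-Cy and 579 CPM in alloBMT. With peaks near the ends of the gene alone, the ratio was 0.24. Over all called peaks, those of Wwox included, 17 of the 152 higher and 20 of the 175 lower had another called in the same direction within 50 kb. The 563 further measured peaks within that span of a higher peak had a median log2 ratio of 0.09, and the 422 near a lower peak -0.07.

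The higher peaks were seldom at promoters, while the lower peaks had a share near that of measured peaks in the same range of level. A RefSeq promoter window, 250 bases before to 50 after a start site, was met by 4 of the 152 higher peaks (2.63%) and 33 of the 175 lower peaks (18.9%), against 36.0% of all measured peaks and 22.3% of measured peaks in the same range of level. The share in a gene was 63.8% of the higher and 67.4% of the lower peaks, against 68.0% of measured peaks in the same range of level. The higher peaks were also narrower, with a median width of 856 bases, against 1193 for the lower ones and 1090.5 for peaks in that range. The match of level is only partial. Measured peaks in that range had a median level of 16.3 CPM, against 10.9 CPM for the higher and 11.4 CPM for the lower peaks.

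Among the 33 lower promoters was that of Il12rb2, the signalling chain of the interleukin-12 receptor that drives interferon gamma in effector T cells. Its peak had 16 counts or 6.81 CPM in cluster 4 and 16.2 CPM in the other CD8 cells (-1.25, -2.08 to -0.52), with 7.83 to 22.5 CPM in the other clusters. Dusp3, a phosphatase of MAP kinases, had a ratio of -1.25 (-2.03 to -0.56) and Nrp1, a co-receptor of semaphorins and VEGF, of -1.24 (-2.07 to -0.51). Wls, which carries Wnt proteins to the cell surface, had -1.28 (-1.96 to -0.67), and Slc16a11, a monocarboxylate transporter family member, -1.77 (-2.66 to -1.0003). Of the 4 higher promoters, 3 were of predicted genes and the other was of Aldoc, an aldolase of glycolysis. The Aldoc peak had 22.6 CPM in cluster 4 and 10.8 CPM in the other CD8 cells (1.06, 0.58 to 1.52). It also overlaps the gene Spag5.

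The promoter windows of the most strongly lower promoter, of Spry2 and Il12rb2 and of the higher Aldoc promoter are shown so that their base composition can be read beside these ratios; they were chosen after the values were seen. The sequences are from RefSeq (GRCm38.p6), 5′ to 3′ on the strand of the gene, and capitals mark CpG dinucleotides (CG, the same on both strands), which are dense in the promoters of widely used and developmental genes.
Rassf4, chr6:116673787-116674086, minus strand: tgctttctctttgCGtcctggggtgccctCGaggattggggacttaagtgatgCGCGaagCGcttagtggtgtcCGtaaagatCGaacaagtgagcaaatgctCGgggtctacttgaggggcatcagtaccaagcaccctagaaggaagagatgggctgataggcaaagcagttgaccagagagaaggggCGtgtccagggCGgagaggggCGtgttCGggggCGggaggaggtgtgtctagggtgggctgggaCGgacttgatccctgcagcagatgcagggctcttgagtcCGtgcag
Spry2, chr14:105896770-105897069, minus strand: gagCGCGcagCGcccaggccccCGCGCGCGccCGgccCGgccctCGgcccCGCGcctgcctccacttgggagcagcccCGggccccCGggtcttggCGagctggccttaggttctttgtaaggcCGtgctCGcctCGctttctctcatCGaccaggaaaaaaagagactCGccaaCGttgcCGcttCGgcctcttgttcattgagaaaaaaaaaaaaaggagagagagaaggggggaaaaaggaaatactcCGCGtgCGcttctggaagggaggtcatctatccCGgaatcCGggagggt
Il12rb2, chr6:67376139-67376438, minus strand: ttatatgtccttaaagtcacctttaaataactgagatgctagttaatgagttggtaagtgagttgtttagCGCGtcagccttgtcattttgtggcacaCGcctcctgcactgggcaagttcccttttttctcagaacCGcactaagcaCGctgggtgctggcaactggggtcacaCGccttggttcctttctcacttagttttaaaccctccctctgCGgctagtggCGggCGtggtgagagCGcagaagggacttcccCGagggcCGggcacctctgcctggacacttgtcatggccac
Aldoc, chr11:78322823-78323122, plus strand: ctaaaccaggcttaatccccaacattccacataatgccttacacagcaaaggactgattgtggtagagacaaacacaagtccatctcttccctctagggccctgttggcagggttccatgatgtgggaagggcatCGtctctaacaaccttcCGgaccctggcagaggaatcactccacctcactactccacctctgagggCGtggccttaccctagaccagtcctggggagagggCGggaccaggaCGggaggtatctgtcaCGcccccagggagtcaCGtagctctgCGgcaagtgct
These windows hold 15 CpG in Rassf4, 28 in Spry2, 12 in Il12rb2 and 8 in Aldoc. At least 1 CpG is found in 94.6% of all 32817 windows, with a median of 7 per window. The median was 20 in the 35 windows that meet lower peaks and 2 in the 5 that meet higher ones, against 22 in the 12256 windows in measured peaks and 17 in the 4924 windows in measured peaks of the same range of level. The GC box (GGGCGG, either strand) occurs in 21 of those 35 windows (60%), in 67.4% of windows in measured peaks, in 57.9% of those in the same range of level and in 35.6% of all. The Ets core (CCGGAAG, either strand) occurs in 1 of the 35 (2.86%), in 19.4% of windows in measured peaks, in 16% of those in the same range of level and in 8.86% of all. A match of letters is a description of the window only.

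Over whole loci, more were lower than higher in the cluster. Of 13677 measured loci, 6 (0.0439%) were higher in cluster 4 by 2-fold or more and 68 (0.497%) lower by as much, and past 1.5-fold these were 54 (0.395%) and 361 (2.64%). Gucy1b1, a subunit of the nitric oxide receptor guanylate cyclase, had 2.98 CPM in cluster 4 and 18.2 CPM in the other CD8 cells (-2.61, -3.94 to -1.54), with 10.0 to 26.3 CPM in the other clusters. Glis1, a zinc finger factor, had 55.8 CPM in cluster 4 and 134 CPM in the others (-1.27, -1.53 to -1.01), but the other clusters themselves ran from 64.1 CPM in cluster 5 and 66.1 CPM in cluster 6 to 213 CPM in cluster 3, and with peaks at its promoter alone the ratio was -0.26. Myo1e, a single-headed myosin, had 70.7 CPM in cluster 4 and 150 CPM in the others (-1.08, -1.32 to -0.85). Ido2, Otx1, Prrg4, Ccdc60 and Synpo2 were also lower than in each of the 7 other clusters, with ratios from -2.21 at Otx1 to -1.14 at Synpo2.

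Ratios of the higher loci were smaller. Igsf9b, an adhesion protein of the immunoglobulin family, had 49.0 CPM in cluster 4 and 22.3 CPM in the other CD8 cells (1.13, 0.81 to 1.45), against 9.25 to 37.4 CPM over the other clusters. St6galnac2, a sialyltransferase, had 43.0 CPM in cluster 4 and 20.9 CPM in the others (1.04, 0.70 to 1.37), but a ratio of 0.44 with peaks within 10 kb. Ctla2b, a cysteine protease inhibitor first found in activated T cells, had 46.0 CPM in cluster 4 and 22.9 CPM in the others (1.01, 0.68 to 1.33). It has a close paralogue, Ctla2a, and the labels do not say how reads were split between them. Trpm1 and Dsel were higher by 0.68 (0.49 to 0.87) and 0.79 (0.48 to 1.10), each above all 7 other clusters.

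**Figure D2:**
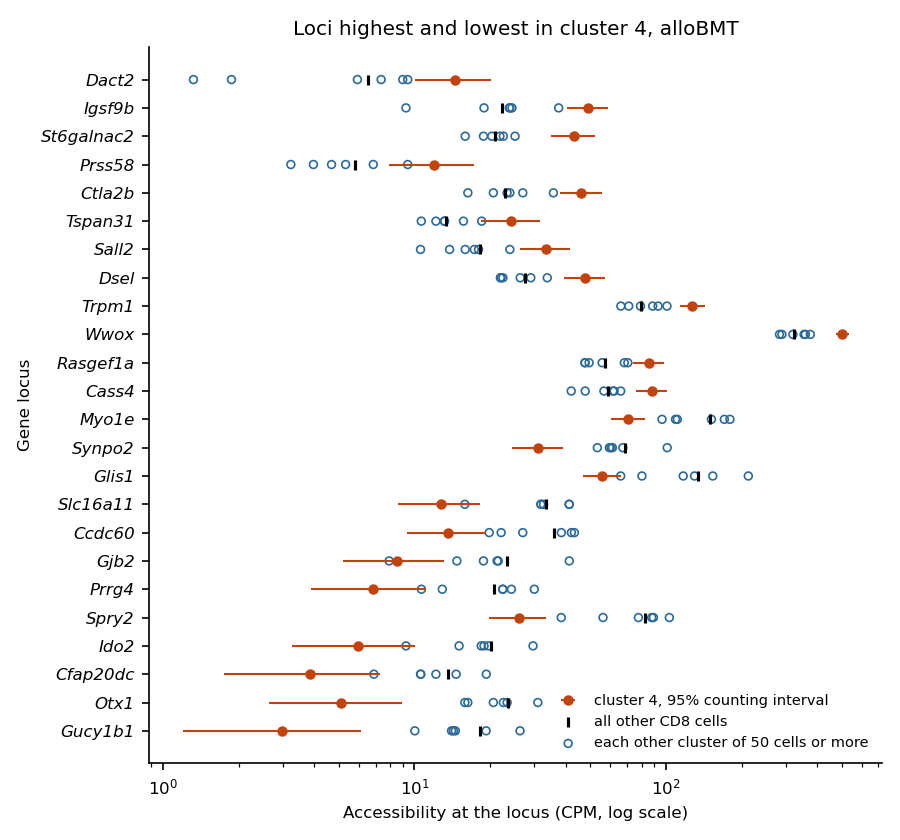
Accessibility (CPM, log scale) at the 12 loci highest and the 12 lowest in alloBMT cluster 4, chosen by the bound of the interval; filled points are cluster 4 with 95% counting intervals, bars are all other CD8 cells and rings are the other clusters with at least 50 cells. At Spry2 the point (26.0 CPM) lies below all rings, and at Wwox (503 CPM) above them.

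The gene lists that describe T cell states hardly separated the cluster. Over 21 lists, 290 different genes were measured, of which 1 (0.345%) was higher past 1.5-fold and 9 (3.1%) were lower past it, near the 0.395% and 2.64% of all loci. List medians ran from -0.35 (killer lectin-like receptors, 5 measured members) to 0.11 (exhaustion), against -0.005 over all loci. The median of the killer lectin-like receptors was 0.04 with peaks near the gene ends alone, -0.12 with peaks within 10 kb and -0.09 at promoters. In all, 12 lists had no member past 1.5-fold. The higher gene was Ly6a, which encodes Sca-1 (0.62, 0.11 to 1.10), but its ratio was 0.13 with peaks within 10 kb of the gene. The 9 lower genes were Il7r, Il12rb2, Il18r1, Il1rl1, Xcl1, Zbtb16, Nrp1, Car2 and Fcer1g.

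Receptors for cytokines held 4 of those 9 genes. Of the 21 measured receptors 4 were lower and 0 higher past 1.5-fold, against 2.64% and 0.395% of all loci. For so few members, 0 higher is near the share of all loci. The list, like the others, was chosen with earlier results of these data known. Its median was -0.15, and -0.05 with each cell counted once per peak. Il7r, the receptor chain for interleukin-7 that naive and memory cells need, had 5.96 CPM in cluster 4 and 12.8 CPM in the other CD8 cells (-1.11, -2.01 to -0.32), with 7.52 CPM in cluster 7 at the low end and 30.2 CPM in cluster 5 at the high end of the others. The 7 PT-Cy cells of cluster 4 gave 2 counts there, or 43.8 CPM (5.30 to 158), and the other PT-Cy CD8 cells 18.6 CPM. Il12rb2 had 44.7 CPM in cluster 4 and 72.8 CPM in the others (-0.70, -1.01 to -0.41), and Il18r1, which binds interleukin-18, 52.8 CPM in cluster 4 and 82.8 CPM in the others (-0.65, -0.93 to -0.38). With peaks near the gene ends alone these ratios were -1.19 and -1.002. Il1rl1, the receptor of interleukin-33, had 15.3 CPM in cluster 4 and 25.6 CPM in the others (-0.74, -1.28 to -0.24). All 4 loci were lower in cluster 4 than in each of the 7 other clusters. The list also held receptors on the other side, with Tgfbr3, a co-receptor of TGF-beta, at 0.49 (0.28 to 0.70).

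The naive, memory and stem-like list had 0 higher and 2 lower of 23 measured members and a median of -0.11. Besides Il7r its lower member was Xcl1, a chemokine that attracts dendritic cells (-0.75, -1.39 to -0.16). Tcf7, the factor of stem-like cells, had 120 CPM in cluster 4 and 131 CPM in the others (-0.13, -0.31 to 0.05), and -0.38 with peaks at its promoters alone. Il6ra, a receptor chain for interleukin-6 in the same list, was at 0.50 (0.28 to 0.72).

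The exhaustion list had 0 higher and 0 lower of 24 measured members, with a median of 0.11 and 19 members (79.2%) above 0, against 49% of all loci. Tox had 505 CPM in cluster 4 and 469 CPM in the other CD8 cells, a ratio of 0.11 (0.02 to 0.20), and Entpd1, the ectonucleotidase CD39, had 419 CPM in cluster 4 and 356 CPM in the others (0.24, 0.14 to 0.34), but 0.04 with peaks near the gene ends alone. Both stood above each of the 7 other clusters. The inhibitory receptors went both ways: Ctla4 had 0.33 (0.17 to 0.49), Havcr2 0.28 (0.09 to 0.46; -0.01 with peaks at its promoter alone) and Pdcd1 -0.11 (-0.25 to 0.03). The list of T cell receptor signalling had 22 of 24 members (91.7%) above 0, a median of 0.09 and none past 1.5-fold, with the adaptor Themis at 0.41 (0.26 to 0.56) and the costimulator Icos at 0.43 (0.20 to 0.66). With TMM scaling the median of the exhaustion list was 0.04, with 14 members (58.3%) above 0, and that of T cell receptor signalling 0.02, with 16 (66.7%) above 0, against 31.8% of all loci, and 8 of the 10 lists with a median above 0 turned below it.

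The effector and cytotoxic list had 0 higher and 1 lower (Il12rb2) of 24 measured members and a median of 0.04. Gzmk, a granzyme of memory-like and ageing CD8 cells, had 104 CPM in cluster 4 and 78.9 CPM in the others (0.40, 0.19 to 0.60), and Gzma 22.6 CPM in cluster 4 and 31.3 CPM in the others (-0.47, -0.91 to -0.06). Among loci of tissue residency, 0 of 17 members passed 1.5-fold, with Cxcr6 at 0.36 (0.16 to 0.56) and Itgae, the integrin chain CD103, at 0.35 (0.19 to 0.51). Cell division loci had 0 of 24 past 1.5-fold and a median of 0.03, with Mki67 at 0.18 (-0.06 to 0.42). Zbtb16, the factor of innate-like T cells, was lower at 37.1 CPM in cluster 4 and 62.0 CPM in the others (-0.74, -1.08 to -0.42).

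Lists of transcription factors held genes on both sides. In the list of T-box, Runx, Ets and zinc finger factors 0 of 23 measured members were higher and 1 (Zbtb16) lower past 1.5-fold, with a median of 0.06. Ikzf1 and Ikzf3, zinc finger factors of lymphocytes, had 0.27 (0.17 to 0.37) and 0.25 (0.14 to 0.36), each above all 7 other clusters. The list of AP-1, BATF, IRF and NFAT factors had 0 of 18 past 1.5-fold and a median of 0.01. Irf4, induced by T cell receptor signals, had 126 CPM in cluster 4 and 97.8 CPM in the other CD8 cells (0.37, 0.18 to 0.55), and Fosl2, an AP-1 subunit, 96.7 CPM in cluster 4 and 131 CPM in the others (-0.43, -0.64 to -0.24).

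The remaining lists had medians near 0 or few measured members. Medians were 0.05 for interferon response (20 measured), 0.02 for Treg (15), -0.07 for p53 and DNA damage (18), -0.04 for survival and death (16) and -0.03 for housekeeping (14). The lists of other blood cells were at similar summed levels in both sets, with 211 CPM in cluster 4 and 229 CPM in the other CD8 cells for B cells, and 378 CPM in cluster 4 and 379 CPM in the others for myeloid cells. Erythroid cells and megakaryocytes had 205 CPM in cluster 4 and 231 CPM in the others, and natural killer cells 339 CPM in cluster 4 and 362 CPM in the others. List medians were -0.13 for B cells (4 measured) and 0.04 for myeloid cells (9). They were -0.08 for erythroid cells and megakaryocytes (7) and -0.16 for natural killer cells (6). The members of these 4 lists past 1.5-fold were Car2, a carbonic anhydrase (-1.49, -2.29 to -0.79), and Fcer1g, an adaptor of Fc receptors (-0.59, -1.18 to -0.06).

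**Figure D3:**
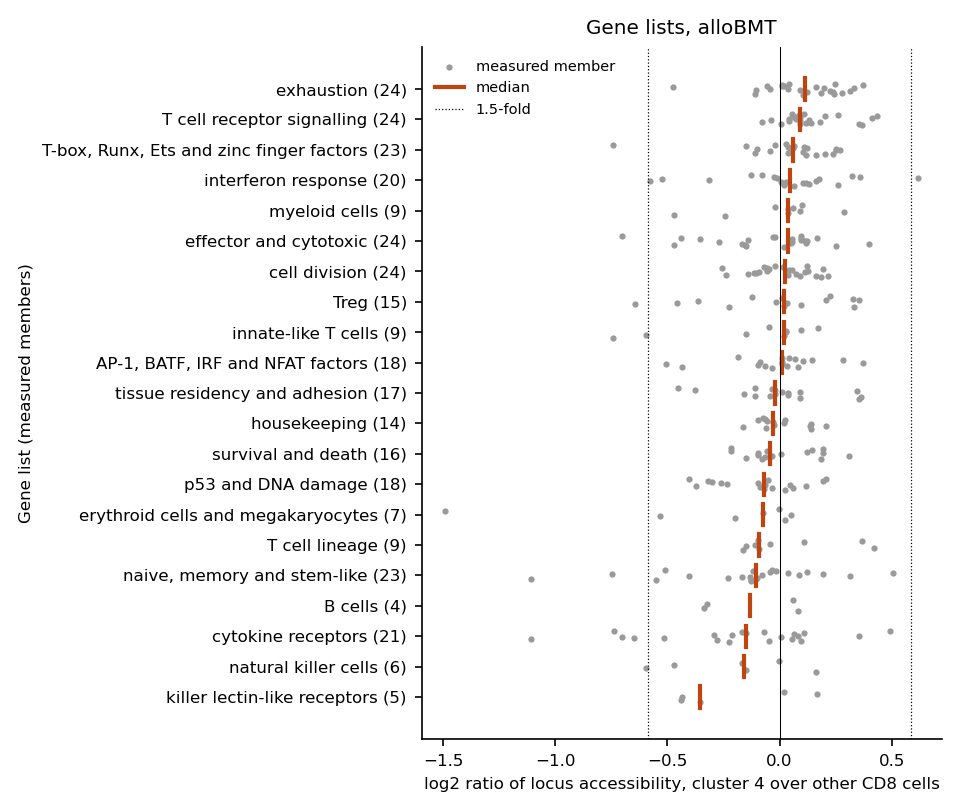
log2 ratio of locus accessibility, cluster 4 over the other CD8 cells of alloBMT, for the measured members of 21 gene lists; grey points are genes, orange bars list medians and dotted lines 1.5-fold. Medians lie between -0.35 and 0.11, and the points beyond the dotted lines are nearly all on the lower side.

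The called peaks were then summed in PT-Cy and CD4 cells, which had no part in calling them. In alloBMT cluster 4, where they were called, the 152 higher peaks had 2708 CPM and the 175 lower peaks 1286 CPM in all, against 1188 CPM at the higher and 3117 CPM at the lower peaks in the other alloBMT CD8 cells. The 7 PT-Cy cells of cluster 4 had 1816 CPM (1447 to 2252) at the higher and 2385 CPM (1959 to 2878) at the lower peaks, and the other PT-Cy CD8 cells 1601 and 2232 CPM. The log2 ratio of higher to lower peaks was -0.39 (-0.82 to 0.03) in those 7 cells and -0.48 (-0.53 to -0.43) in the other PT-Cy CD8 cells, against 1.07 in alloBMT cluster 4 itself. At these peaks the PT-Cy cells that carry the cluster's number were therefore within counting error of the other PT-Cy CD8 cells. Whether the difference between the libraries comes from the drug, the mice or the library cannot be told apart.

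The alloBMT CD4 cells, which the authors clustered separately, had a log2 ratio of -0.24 (-0.28 to -0.21), above that of the other alloBMT CD8 cells (-1.39). The peaks were called against those other CD8 cells, which by itself lowers their ratio. A ratio above theirs is therefore no measure of likeness to cluster 4. CD4 cluster 0 of alloBMT had 1856 CPM at the higher and 1653 CPM at the lower peaks, a log2 ratio of 0.17 (0.11 to 0.22), and the other CD4 clusters of alloBMT had ratios from -0.60 to -0.07. The other alloBMT CD8 clusters with at least 50 cells ran from -1.66 in cluster 0 to -0.92 in cluster 2, below the CD4 clusters. Only cluster 5, with 30 cells and a ratio of -0.27, lay within the CD4 range. The PT-Cy CD4 cells, at -0.47 (-0.55 to -0.39), were close to the -0.48 of the other PT-Cy CD8 cells. Within single alloBMT cells with at least 10 counts at called peaks, a median of 68.6% of those counts lay on higher peaks in 258 cluster 4 cells and 25.5% in 1437 other CD8 cells, with 16 cluster 4 cells below 50% and 132 other cells above it. The peaks were called from these same cells, so this separation follows from the choice of peaks.

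**Figure D4:**
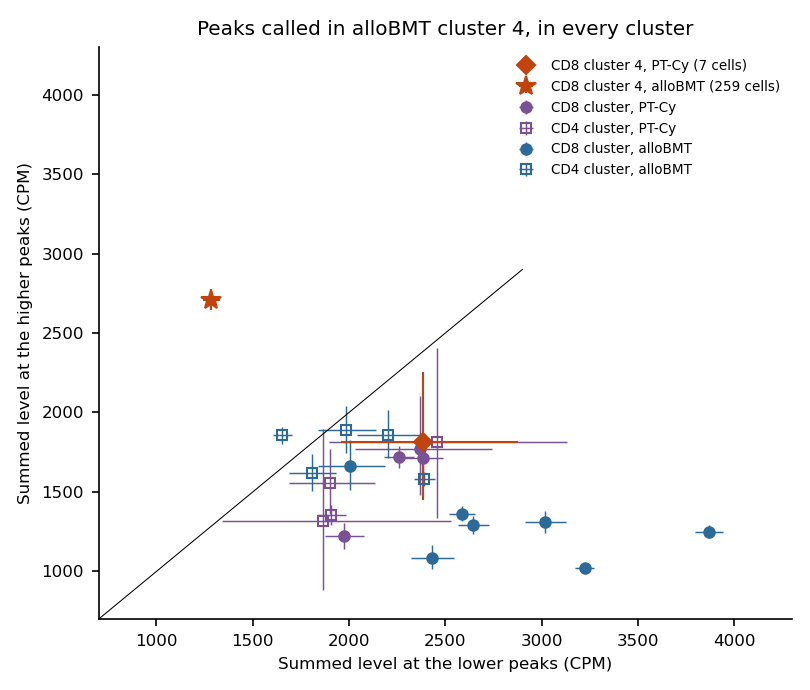
Summed level (CPM, 95% counting intervals) at the 175 peaks lower (x axis) and the 152 peaks higher (y axis) in alloBMT cluster 4, for each cluster with at least 20000 counts; stars and diamonds are CD8 cluster 4, filled circles other CD8 clusters, open squares CD4 clusters and the line marks equal levels. Only alloBMT cluster 4 and alloBMT CD4 cluster 0 lie above the line, and the 7 PT-Cy cells of cluster 4 lie among the other PT-Cy clusters.

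Over all 25218 measured peaks the cluster was most like clusters 2 and 0. The Pearson correlation of log2(CPM + 1) across peaks was 0.933 with cluster 2, 0.932 with cluster 0, 0.920 with cluster 7, 0.912 with cluster 1, 0.911 with cluster 3 and 0.866 with cluster 6. The points share 1 library, the clusters gave from 756708 counts (cluster 6) to 5395924 counts (cluster 0), and the part of depth in the order was not tested.

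The deposited scores placed the cluster low for stem-like genes and in the middle for exhaustion. Each score is a number per cell with no true zero, and the labels do not list the genes behind it. The stem-like RNA score averaged -0.035 in alloBMT cluster 4, the lowest of the 8 clusters, and 0.00063 in the other alloBMT CD8 cells, a difference of -0.035 or -0.40 SD of the other cells. The stem-like accessibility score averaged 0.0089 in cluster 4 and 0.032 in the others, second lowest of the 8 after cluster 2 at 0.0084. The Tex RNA score averaged 0.023 in cluster 4 and 0.027 in the others, and the Tex accessibility score 0.048 in cluster 4 and 0.057 in the others, ranks 5 and 4 from the lowest. Among the 129 cluster 4 cells and 449 other cells of like ATAC depth (6290.5 to 9660.5 counts), the difference in the Tex RNA score was -0.0017, against -0.0043 over all cells. In the stem-like accessibility score it was -0.013, against -0.023, and in the stem-like RNA score -0.027, against -0.035. In the Tex accessibility score the difference was larger at like depth, at -0.0127 against -0.0092. Cells spread widely within each set, and 30.1% of cluster 4 cells were above the median of the other cells in the stem-like RNA score and 38.2% in the Tex accessibility score. In cluster 4 the correlation between the stem-like and Tex scores over 259 cells was -0.010 at the RNA level and -0.005 at the accessibility level.

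**Figure D5:**
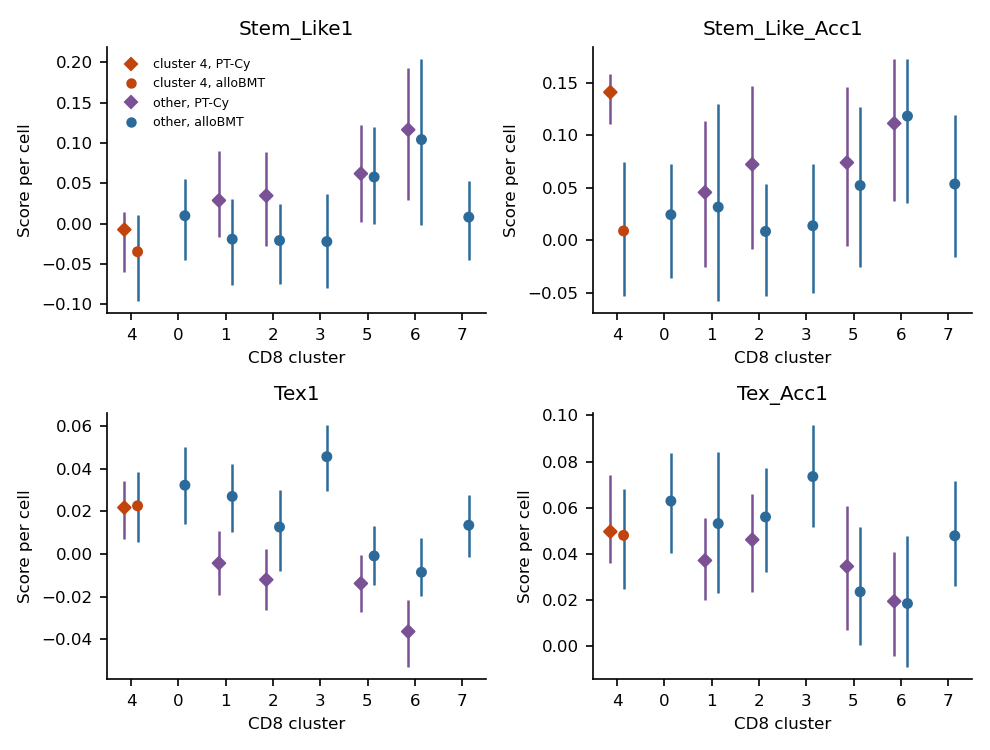
Deposited scores per cell by CD8 cluster, for clusters with at least 7 cells in a library; points are means and lines run from the 25th to the 75th percentile of cells, with cluster 4 in orange at the left. The alloBMT mean of cluster 4 is the lowest for Stem_Like1 (-0.035), and its 7 PT-Cy cells have the highest mean for Stem_Like_Acc1 (0.141).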

How the data were processed

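The ATAC table deposited by the authors holds whole-number counts per peak and cell with no normalization, and the totals per cell equalled the deposited count column in 3587 of 3587 cells. The deposited cell table gives clusters, counts, the mitochondrial percent, the TSS enrichment and nucleosome signal ratio, the fraction of weight given to each assay in the clustering, and module scores, per the file headers; of its 58 columns 34 were not used. The submitters' processing notes name Cell Ranger ARC 1.0.1, MACS2 and the build GRCh38, which is human; 51.4% of mouse RefSeq promoter windows (GRCm38.p6) met a deposited peak, against 8.48% to 9.10% after shifts of 2000 to 200000 bases, and that assembly was used for names and neighbours. The labels do not say how the authors filtered cells or doublets. Doublets were not called; instead, ratios were also taken after dropping the deepest 5% of cells by ATAC counts.

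For each set of cells, counts were added up per peak and scaled to CPM. Ratios are log2, cluster 4 over other CD8 cells, with exact conditional binomial (Clopper-Pearson) 95% intervals; levels of small sets have exact Poisson intervals. Calculations were tested on simulated counts. Members and 21 gene lists (338 genes, of which 335 were in the gene table and 290 measured) were chosen with earlier results of these data known. Named were the 10 peaks and 12 protein-coding loci in each direction with the interval bound farthest from 0, except predicted, sex-linked, haemoglobin, mitochondrial and ribosomal genes and antigen receptor segments, then at most 4 genes per list, and a set of 42 state genes; further promoters and the loci Il6ra, Tgfbr3 and markers of other cells were named after values were seen. Some genes are not reported here. Tools were pandas 2.3.3, scipy 1.17.1 and numpy 2.4.6 under Python 3.11.15, and edgeR 4.0.16 (TMM factors) and DESeq2 1.42.0 (size factors) under R 4.3.3.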

Additional observations from a re-analysis of the deposited data

Results flagged for a closer look

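In 3 of the 4 deposited scores the difference between cluster 4 and the other CD8 cells had opposite signs in the 2 libraries, which is why they are listed here; with 1 library per group that opposition was not tested, and the PT-Cy side rests on 7 cells. For the stem-like accessibility score the difference was 0.060 in PT-Cy and -0.023 in alloBMT. For the Tex RNA score it was 0.040 in PT-Cy, where all 7 cells (100%) lay above the median of the other CD8 cells, and -0.0043 in alloBMT. For the Tex accessibility score it was 0.015 in PT-Cy and -0.0092 in alloBMT. The mean Tex RNA score of the 7 PT-Cy cells, 0.022, was close to the 0.023 of alloBMT cluster 4, while the other CD8 cells had -0.018 in PT-Cy and 0.027 in alloBMT. Because cells were grouped in part by their RNA, neither this closeness nor the place of the 7 cells above the median is a test.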

How the results depend on the processing

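No paired analysis was possible because each group has 1 library. The comparisons of cluster 4 with other cells within PT-Cy, and of PT-Cy with alloBMT within cluster 4, were planned and not run, as 7 PT-Cy cells are fewer than the 50 required. The 20 named peaks kept their direction under each of the 10 alternatives. These peaks were named for the interval bound farthest from 0 in the same counts, so that this follows largely from the choice. Of 940 values of the 128 named loci over 8 alternatives, 910 kept their direction, and some of these loci were chosen in the same way. The numbers of called peaks depended on depth: with a minimum of 10 expected counts 608 were higher and 847 lower, with a minimum of 40 these were 28 and 21, and with no minimum beyond a count in both sets 17889 and 10313. Counting each cell once per peak gave 70 higher and 105 lower peaks, and 34 loci past 1.5-fold and 3 past 2-fold higher; the mean over cells of each cell's share gave 263 lower peaks. With TMM factors 35 loci were higher past 1.5-fold and 3 past 2-fold. With peaks at RefSeq promoters, an alternative chosen after seeing the data like that without cluster 1, there were 32 higher and 176 lower loci past 1.5-fold, and 1 and 33 past 2-fold. Of the list medians, B cells had -0.24, innate-like T cells -0.10 and killer lectin-like receptors 0.043 with peaks near gene ends, killer lectin-like receptors -0.12 with a 10 kb window and -0.091 at promoters, Treg -0.30 at promoters, and cytokine receptors -0.047 with each cell counted once; the causes were not tested. The Tex RNA score differed by -0.0072 between medians. Most called peaks rest on few counts (a median of 35.5 in cluster 4 for higher and 15 for lower peaks), so that single peaks near 2-fold are uncertain.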
